A study of Mus musculus with 232 samples.

Results

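The gene Trp53, which encodes the transcription factor p53, and 9 genes tied to it (Mdm2, Mdm4, Ccng1, Phlda3, Sesn2, Trp53inp1, Bbc3, Perp and Zmat3) were followed through single mouse embryonic stem cells (mESCs). These 10 genes were taken from a list of well known p53 pathway genes, out of 42493 genes in each file. No cut on their values was used, but earlier results of these data were known. p53 is kept low in unstressed cells by its negative regulators Mdm2 and Mdm4. After DNA damage or other stress it accumulates and switches on genes that halt the cell cycle, repair DNA, feed back on p53 or kill the cell. mESCs are known for high p53 levels and a weak cell cycle arrest through p53.

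The series asked how a single microRNA changes the transcriptome of cells that otherwise make no canonical microRNAs. Dgcr8-/- mESCs lack a subunit of the nuclear complex that starts microRNA maturation. They were mock-transfected (called Dgcr8-/- below) or transfected with a synthetic mimic of miR-294, a microRNA abundant in mESCs, or of let-7, a microRNA of differentiated cells. The let-7 member used is named differently in the sources, so that the group is called let-7-transfected here. Wild-type parental mESCs, titled V6.5 in the labels (WT), formed the fourth group. All groups were grown in DMEM with 15% fetal bovine serum, LIF and the 2 inhibitors PD0325901 and CHIR99021 (2i). Cells were transfected with Dharmafect 1 and captured 24 h later. Whether the WT cells were also mock-transfected is not stated in their labels.

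Each condition was captured on 1 microfluidic C1 circuit, no separate cultures are named, and the authors had already removed transfected cells whose microRNA targets were not lowered. A condition is therefore 1 sample: the spread given below is between cells, the circuit and the condition cannot be told apart, and no p-value can be given. The deposited files held 182 cells, the number the study states for every condition, in 232 sequencing runs. In 4 pairs of cells (3 let-7-transfected, 1 miR-294-transfected) the counts correlated at r = 0.987 to 0.991, as in 2 runs of 1 cell (0.969 to 0.990) and unlike any other pair of cells (at most 0.715). Each pair was averaged and counted as 1 cell, which left 60 Dgcr8-/-, 16 WT, 57 miR-294-transfected and 45 let-7-transfected cells. In 2 of the 50 cells sequenced in 2 runs (WT cell 3 and let-7-transfected cell 19) the runs did not match, and the values without them are among the alternatives in the closing section. Total counts per cell ranged from 513521 to 3979274. Dgcr8, of which the knockout removes only a part, was still counted in Dgcr8-/- cells (mean 51.5 against 118 normalised counts in WT), so that its count does not check the labels. All 9 mESC marker genes were counted in every condition. Marker genes of feeder fibroblasts and of primitive endoderm had a median summed level of 0 in every condition.

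The mimics correspond to these mature microRNAs in RefSeq (GRCm38.p6), shown because the let-7 candidates share the seed (bases 2 to 8, in capitals) through which a microRNA pairs with its target. They are written 5′ to 3′.
miR-294-3p: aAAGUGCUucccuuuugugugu
let-7b-5p: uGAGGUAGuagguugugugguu
let-7c-5p: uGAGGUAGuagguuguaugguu
let-7i-5p: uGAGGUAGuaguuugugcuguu

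The letters complementary to the seed, AGCACTT for miR-294 and CTACCTC for let-7, were searched on the transcript strand of the longest annotated 3′ untranslated region (UTR) of each gene. Of 10280 tested genes with such a region, 18% held the miR-294 letters and 10.5% the let-7 letters. Sesn2, Trp53inp1 and Zmat3 each held 1 miR-294 match, and Mdm4 held 1 let-7 match. Their regions are 1684, 4420, 6692 and 5436 bases long, in that order, against a median of 1188 bases. A longer region has more room for a match, and the shares of all genes are not matched for length. Trp53, Mdm2, Phlda3, Bbc3 and Perp held neither. Cdkn1a, which encodes the cell cycle inhibitor p21 and is the best known p53 target, is given throughout as context and held 2 miR-294 matches. The sites below lie in the 3′ UTR, in GRCm38 coordinates, 5′ to 3′ on the transcript strand, with the match in capitals.
Sesn2 with miR-294 (chr4:132492445-132492469, minus strand): agcagccaccaccgacaAGCACTTt
Trp53inp1 with miR-294 (chr4:11174209-11174233, plus strand): tacagaatgaacagcacAGCACTTt
Zmat3 with miR-294 (chr3:32339104-32339128, minus strand): gtgctgtgggtttccgaAGCACTTg
Cdkn1a with miR-294 (chr17:29099811-29099835, plus strand): gatcctcagacctgaatAGCACTTt
Cdkn1a with miR-294 (chr17:29100483-29100507, plus strand): aataccgtgggtgtcaaAGCACTTa
Mdm4 with let-7 (chr1:132986835-132986859, minus strand): cacacagctacccgtttCTACCTCa

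p53 binds DNA as a tetramer on a pair of half-sites. The p53 half-site was searched in the 300 bases around the start site (250 before, 50 after) of the 7 members with a RefSeq promoter, and Mdm2, Ccng1 and Trp53 each held 1, against 8.36% of 32851 promoters. The half-site reads alike on both strands, so that 1 search covers both. Mdm4, Phlda3, Sesn2 and Bbc3 held none in this window. With at most 1 half-site each, no member held a pair in this window. A pair, with at most 13 bases between its half-sites, was held by 0.0731% of the promoters. Cdkn1a, not a member, held 2 half-sites that form 1 pair in its promoter at chr17:29090729-29091028, and none in its other listed promoter. The 3 half-sites of the members, in capitals with flanking bases, are shown because Mdm2 and Ccng1 are feedback targets of p53. A lone half-site is not a full p53 site, and whether p53 binds at these letters was not measured.
Mdm2 (chr10:117710925-117710954, minus strand): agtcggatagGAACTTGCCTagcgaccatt
Ccng1 (chr11:40755452-40755481, minus strand): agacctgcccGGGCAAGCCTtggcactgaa
Trp53 (chr11:69580274-69580303, plus strand): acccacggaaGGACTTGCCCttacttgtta

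The levels were first ordered per transcript length, as the mean FPKM (fragments per kilobase of transcript, scaled to the depth of the run) over cells. In Dgcr8-/- cells Trp53 stood at 907 ± 398 FPKM (SD, 60 cells), above Mdm4 at 104 ± 80.2 and Mdm2 at 45.4 ± 67. The targets followed, with Ccng1 at 25.1 ± 33.5, Trp53inp1 at 23.6 ± 36.2, Sesn2 at 11.95 ± 22.5 and Perp at 10.3 ± 19.8 FPKM. Zmat3, Phlda3 and Bbc3 were lowest, at 6.36 ± 9.18, 5.61 ± 13.4 and 0.292 ± 1.73 FPKM. The step from Trp53 to Mdm4 exceeded the SD between cells, and every later step between neighbours was smaller than it. Trp53 ranked first and Bbc3 last in each condition. Perp moved most in rank, from 7 in Dgcr8-/- and 8 in WT and miR-294-transfected cells to 2 in let-7-transfected cells, where it stood at 67.6 ± 78.7 FPKM.

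For comparisons between conditions, counts were divided by a size factor per cell (normalised counts), averaged over the cells, and compared as the log2 ratio of 2 means. A gene was called past 2-fold at a log2 ratio of 1 or more in size. The comparison took in the 11178 genes whose count averaged 5 or more over all cells, 9 of the 10 members among them. Bbc3 did not reach this level. The median of all compared genes was itself -0.28 for miR-294-transfected against Dgcr8-/- cells, 0.18 for let-7-transfected against Dgcr8-/- and 0.37 for Dgcr8-/- against WT, and a member's ratio relative to that median is given beside its own where it matters. Both mimics were compared with the same Dgcr8-/- cells, so that these comparisons are not independent.

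After miR-294 none of the 9 members was past 2-fold, higher or lower, whereas 5.74% of all compared genes were past it higher and 20.6% lower. After let-7, 1 member was past 2-fold higher (Perp) and 0 lower, against 18.5% and 9.19% of all genes. Between Dgcr8-/- and WT cells, 2 members were higher in Dgcr8-/- (Phlda3 and Perp) and 0 lower, against 31.8% and 9.69% of all genes. The median log2 ratio of the 9 members was -0.41, -0.06 and 0.38 in these comparisons. The share of all calls that were higher depended on scaling: for miR-294 it was 21.8%, 32.8% with CPM (counts scaled to the total of each cell), 35% with pooled CPM, 32.9% with FPKM and 38.2% with ratios centred on the median gene. With that centring it went from 66.8% to 55.4% for let-7 and from 76.6% to 60.1% for Dgcr8-/- against WT.

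**Figure D1:**
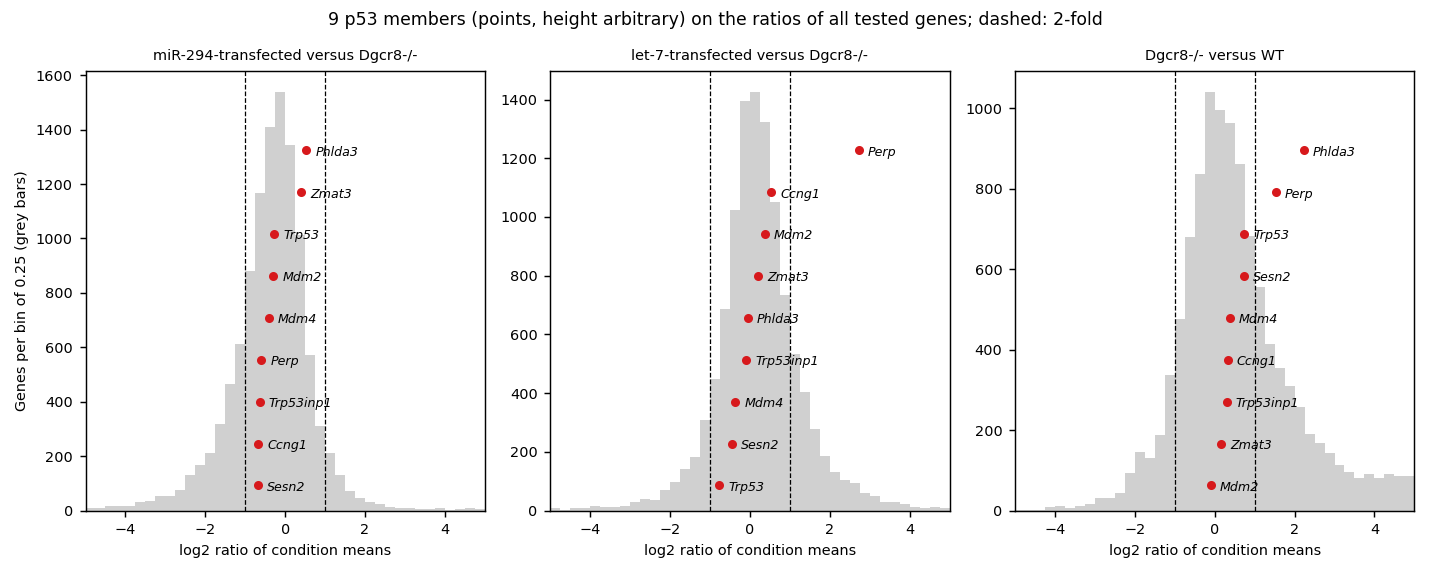
Log2 ratios of condition means of the 9 compared p53 members (red points, height arbitrary) over the distribution of all 11178 compared genes (grey bars, genes per bin), 1 panel per comparison, with dashed lines at 2-fold. All 9 members lie between the dashed lines for miR-294, Perp alone lies beyond them for let-7 (2.73), and Phlda3 (2.23) and Perp (1.53) lie beyond them for Dgcr8-/- against WT.

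Trp53 itself (chr11:69580359-69591873 in GRCm38, plus strand) was counted in every cell. Its normalised count ran from 246 through a median of 2217 to 4681 in Dgcr8-/- cells and from 371 through 1312 to 2893 in WT cells. In miR-294-transfected cells it ran from 71.2 through 1840 to 4386, and in let-7-transfected cells from 101 through 1141 to 4400. All 4 ranges overlapped widely, and 2 of 16 WT, 17 of 57 miR-294-transfected and 8 of 45 let-7-transfected cells lay above the Dgcr8-/- median.

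The mean of Trp53 was 2268 ± 997 (SD, 60 cells) in Dgcr8-/-, 1359 ± 685 (16 cells) in WT, 1877 ± 858 (57 cells) in miR-294-transfected and 1330 ± 878 (45 cells) in let-7-transfected cells. Trp53 was thus 1.71-fold lower after let-7 (log2 -0.77, or -0.95 relative to the median gene), the lowest ratio of the 9 members in that comparison. It was 1.67-fold higher in Dgcr8-/- than in WT (0.74, or 0.37 relative to the median gene). After miR-294 the ratio was -0.27, or 0.00 relative to the median gene, a direction that is lost with that centring. All 3 differences were smaller than the SD between Dgcr8-/- cells, while the let-7 and WT differences exceeded the SD of the let-7-transfected and WT cells. No single cell carried the Trp53 ratios: leaving out any 1 cell kept the let-7 ratio between -0.85 and -0.74. Its processed pseudogene Trp53-ps, which shares 8.79% of the 31-base words of the Trp53 transcripts, was listed at 0 in every cell.

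**Figure D2:**
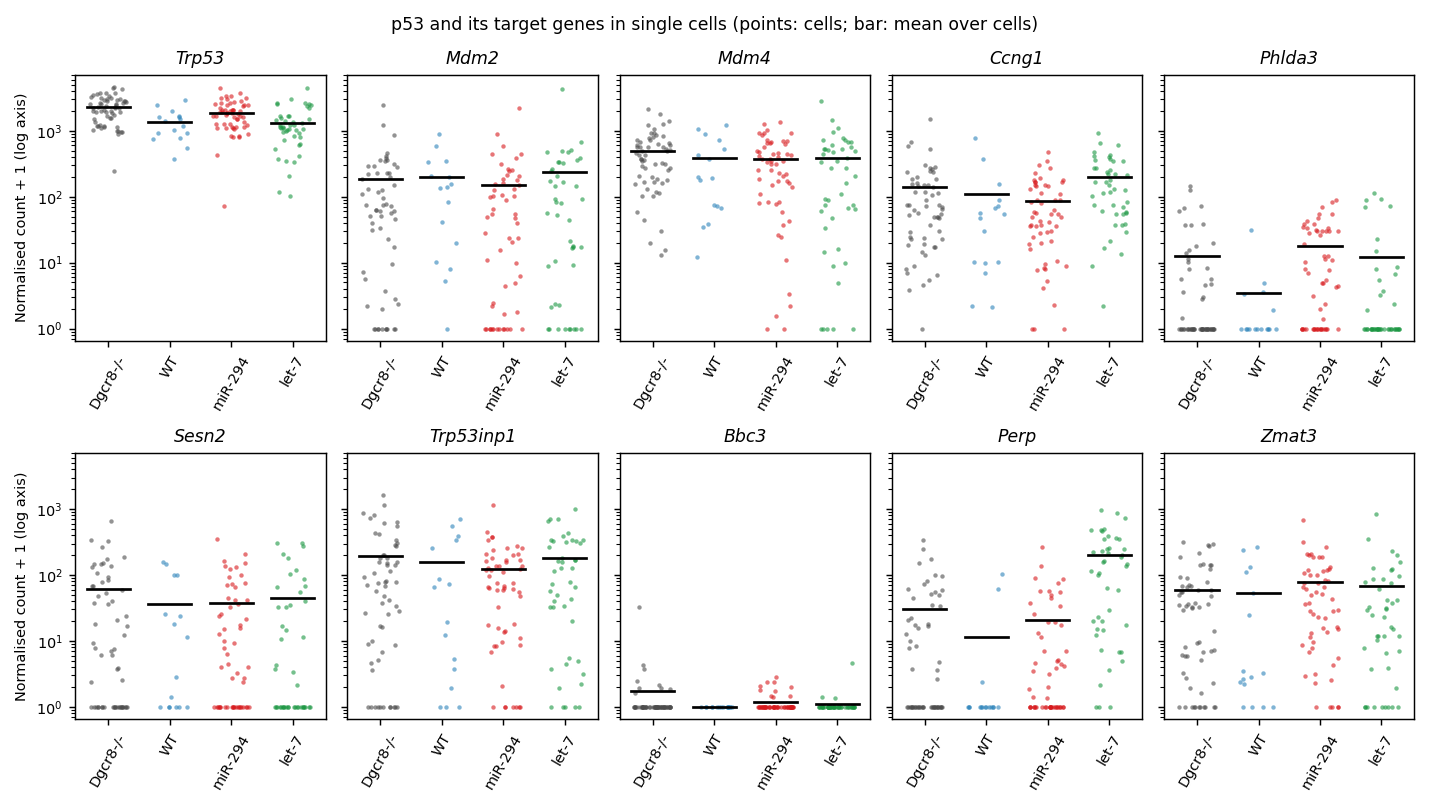
Normalised counts plus 1 on a log axis for each of the 10 members in single cells (points) of 4 conditions, with the mean over cells as a black bar (60 Dgcr8-/-, 16 WT, 57 miR-294-transfected and 45 let-7-transfected cells). Trp53 forms a band near its means of 1330 to 2268, most other members scatter widely and down to 0, and Perp is shifted upwards in let-7-transfected cells.

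The p53 antagonists came next. Mdm2 (chr10:117688875-117710758, minus strand), the ubiquitin ligase that marks p53 for degradation and is itself a p53 target, was counted in 50 of 60 Dgcr8-/-, 15 of 16 WT, 44 of 57 miR-294-transfected and 36 of 45 let-7-transfected cells. Its lowest value was 0 in each condition, and its medians were 61.2, 137, 46.1 and 56.4 in that order. Its highest values were 2501, 885, 2242 and 4371, far above the medians.

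The Mdm2 means were 184 ± 373 in Dgcr8-/-, 197 ± 244 in WT, 149 ± 329 in miR-294-transfected and 238 ± 655 in let-7-transfected cells, and the SD exceeded the mean everywhere. Its log2 ratios were -0.30 after miR-294, 0.37 after let-7 and -0.10 for Dgcr8-/- against WT. The let-7 value rested on 1 cell: let-7-transfected cell 21 held 40.8% of the summed Mdm2 level, and without it the ratio turned to -0.35. The direction for miR-294 turned too without Dgcr8-/- cell 13 (0.05), and that of Dgcr8-/- against WT without WT cell 5 (0.29). No direction of Mdm2 can be read from these cells.

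Mdm4 (chr1:132959484-133030561, minus strand), a relative of Mdm2 that blocks p53's activation domain, was counted in all Dgcr8-/- and WT cells, in 55 of 57 miR-294-transfected and in 40 of 45 let-7-transfected cells. It ran from 12.1 through a median of 396 to 2141 in Dgcr8-/- cells and from 11.2 through 195 to 1238 in WT cells. In miR-294-transfected cells it ran from 0 through 314 to 1357, and in let-7-transfected cells from 0 through 267 to 2868. The groups overlapped over nearly their whole range. The Mdm4 means of 498 ± 430, 382 ± 398, 374 ± 335 and 386 ± 509 (Dgcr8-/-, WT, miR-294 and let-7) gave log2 ratios of -0.41 after miR-294, -0.37 after let-7 and 0.38 for Dgcr8-/- against WT. Mdm4, the member with the let-7 match, stood 0.54 below the median gene after let-7, and 0.13 below it after miR-294. Trp53 (-0.95 relative to the median gene) and Sesn2 (-0.62), without a let-7 match, stood lower after let-7. The let-7 ratio of Mdm4 was -0.89 with FPKM and, as a difference of mean log2(normalised count + 1), -1.55, past 2-fold. Its ratio of Dgcr8-/- to WT was 1.02 with medians over cells plus 1. Its pseudogene Mdm4-ps, which shares 13.1% of its 31-base words, had means of 3.10 to 5.22 normalised counts.

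Ccng1 (chr11:40748552-40755311, minus strand) encodes cyclin G1, a p53 target that acts back on the Mdm2 and p53 loop. Its normalised count ran from 0 through a median of 66 to 1514 in Dgcr8-/- cells and from 1.14 through 50.3 to 786 in WT cells. In miR-294-transfected cells it ran from 0 through 48.7 to 480, and in let-7-transfected cells from 1.18 through 131 to 925. The let-7-transfected cells had the highest median, with 31 of 45 above the Dgcr8-/- median, although the ranges overlapped.

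The means of Ccng1 were 138 ± 228 in Dgcr8-/-, 110 ± 202 in WT, 86.3 ± 97.1 in miR-294-transfected and 201 ± 197 in let-7-transfected cells. It was 1.60-fold lower after miR-294 (log2 -0.68) and 1.45-fold higher after let-7 (0.54). Among the cells sequenced in 2 runs alone the let-7 ratio was -0.02. For Dgcr8-/- against WT the ratio was 0.33, or -0.04 relative to the median gene, so that its direction was lost with that centring. WT cell 5 held 44.6% of the summed WT level, and without it the ratio was 1.09, past 2-fold. Without Dgcr8-/- cell 13 the ratio was 0.06.

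Perp (chr10:18845020-18857073, plus strand), which encodes a membrane protein of desmosomes linked to p53-dependent cell death, differed most. It was counted in 30 of 60 Dgcr8-/- cells (50%, exact 95% binomial interval 36.8 to 63.2%), 3 of 16 WT cells (18.8%, 4.05 to 45.7%), 32 of 57 miR-294-transfected cells (56.1%, 42.4 to 69.3%) and 42 of 45 let-7-transfected cells (93.3%, 81.7 to 98.6%). These and all later intervals are on numbers of cells and take the cells as independent draws. They cover the sampling of cells within a circuit only, and not differences between circuits or cultures. Reads without molecular identifiers are not independent molecules, which these intervals do not address. With every cell thinned to 500000 counts, the shares were 45%, 18.8%, 50.9% and 86.7%.

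The normalised count of Perp ran from 0 through a median of 0.83 to 344 in Dgcr8-/- cells and from 0 through 0 to 104 in WT cells. In miR-294-transfected cells it ran from 0 through 1.02 to 268, and in let-7-transfected cells from 0 through 134 to 974. The let-7-transfected cells stood apart from the rest by their median, and 42 of 45 lay above the Dgcr8-/- median, but their range still reached down to 0.

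The Perp means of 29.95 ± 62.6 in Dgcr8-/- and 199 ± 235 in let-7-transfected cells gave a log2 ratio of 2.73, a 6.63-fold higher mean, above 97.0% of all compared genes. Over 17 alternatives the ratio stayed between 2.53 and 6.21, the latter from medians, and leaving out any 1 cell kept it between 2.60 and 3.01. The Perp mean after miR-294 was 19.7 ± 43.7, with a log2 ratio of -0.60. In WT it was 10.4 ± 29.1, so that Dgcr8-/- cells were 2.89-fold higher (1.53). That value rested on few WT cells: 62.4% of the summed WT level came from WT cell 5, and without it the ratio was 2.85. With medians over cells plus 1 it was 0.87, no longer past 2-fold.

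The summed levels of the marker genes were also set beside each other for let-7-transfected and Dgcr8-/- cells. The summed level of the 9 mESC markers had a median of 6362 in let-7-transfected against 9266 in Dgcr8-/- cells (ranges 1364 to 13320 and 2997 to 15720). The feeder fibroblast markers ranged in sum from 0 to 351 after let-7 (5 of 7 at 0 in all cells) and from 0 to 8.22 in Dgcr8-/- cells (5 of 7 at 0). Primitive endoderm markers ranged from 0 to 454 (3 of 5 at 0) and from 0 to 165 (4 of 5 at 0), with Gata6 and Sox17 at 0 in both. Trophoblast markers had medians of 14.2 (0 to 332, 0 of 4 at 0) and 6.65 (0 to 229, 1 of 4 at 0). The part of these markers in the Perp result was not tested. Since cells of one condition come from 1 circuit, more Perp per cell and a different mix of captured cells cannot be told apart.

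**Figure D3:**
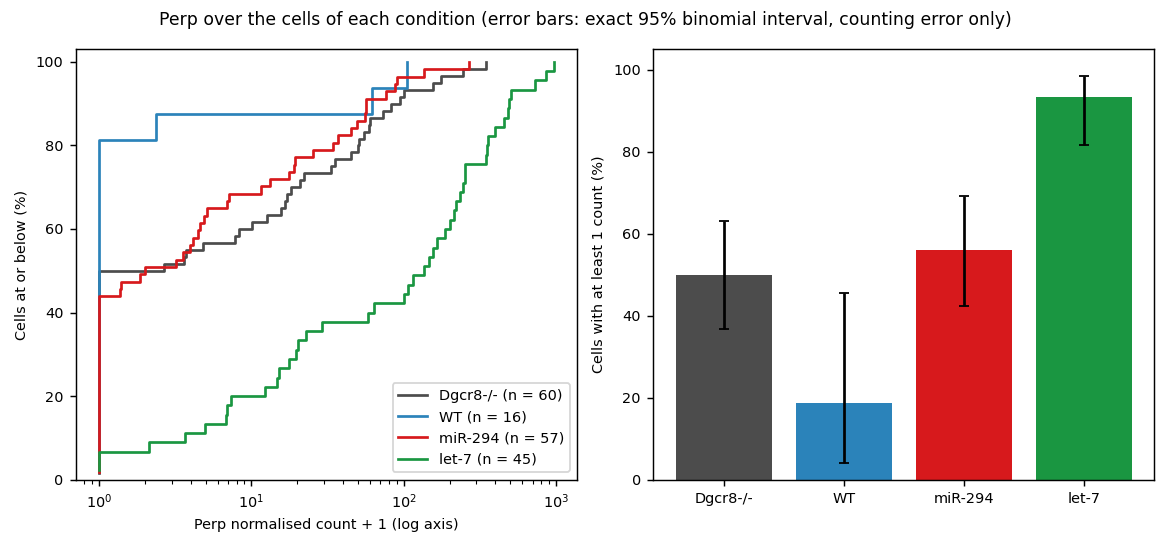
Left, the percentage of cells at or below each Perp normalised count (plus 1, log axis) in the 4 conditions; right, the percentage of cells with at least 1 Perp count with its exact 95% binomial interval. The let-7 curve lies to the right of the other curves, and 93.3% of let-7-transfected cells held a count, against 50% of Dgcr8-/-, 56.1% of miR-294-transfected and 18.8% of WT cells.

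Phlda3 (chr1:135766119-135769136, plus strand), a p53 target whose protein restrains the kinase Akt, was low. It was counted in 24 of 60 Dgcr8-/- (40%, 27.6 to 53.5%), 5 of 16 WT (31.3%, 11 to 58.7%), 38 of 57 miR-294-transfected (66.7%, 52.9 to 78.6%) and 15 of 45 let-7-transfected cells (33.3%, 20 to 48.95%). Its median was 0 except after miR-294, where it was 5.92, and its highest values were 142, 29.7, 88.3 and 112 in the same order. More miR-294-transfected cells than others held a count, and thinning to 500000 counts left this order of the 4 shares unchanged (36.7%, 18.8%, 61.4% and 28.9%). The Phlda3 means of 11.6 ± 28.04, 2.46 ± 7.37, 16.7 ± 21.8 and 11.1 ± 27.9 gave log2 ratios of 0.53 after miR-294, -0.06 after let-7 and 2.23 for Dgcr8-/- against WT.

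The WT mean of Phlda3 lay near the limit of counting. A single cell, WT cell 15, held 75.3% of the summed WT level, and without it the ratio of Dgcr8-/- to WT was 4.16. With medians in place of means the ratio was 0, because both medians were 0, and as a difference of mean log2(normalised count + 1) it was 0.80, so that the call was lost both ways. Against WT, miR-294-transfected cells had a Phlda3 ratio of 2.76 (4.68 without WT cell 15), the only member past 2-fold in that comparison, where 23.7% of all genes were past it higher and 13.8% lower. In that comparison Perp stood at 0.93 (2.25 without WT cell 5), Zmat3 at 0.56 (1.02 without WT cell 9) and Ccng1 at -0.35 (0.41 without WT cell 5).

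Sesn2 (chr4:132492032-132510501, minus strand) encodes sestrin 2, a stress protein that restrains growth signalling through mTORC1. It was counted in 38 of 60 Dgcr8-/-, 10 of 16 WT, 36 of 57 miR-294-transfected and 23 of 45 let-7-transfected cells. The Sesn2 medians were 6.67, 6.08, 5.40 and 1.11 and its highest values 662, 157, 353 and 306 normalised counts, with 0 as the lowest in every group. Its means were 59.4 ± 112, 35.9 ± 55.2, 36.95 ± 65.4 and 43.7 ± 82.7. The log2 ratios of Sesn2 were -0.68 after miR-294, -0.44 after let-7 and 0.73 for Dgcr8-/- against WT. The differences between its means were smaller than the SD between cells of any group. The last Sesn2 ratio was 1.097 without WT cell 1, the highest WT cell, which put it past 2-fold. That ratio was 0.46 without Dgcr8-/- cell 24, 0.36 relative to the median gene and 0.11 with medians over cells plus 1.

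Trp53inp1 (chr4:11156431-11174379, plus strand), whose product promotes p53 activity and cell death, was counted in 49 of 60 Dgcr8-/-, 13 of 16 WT, 50 of 57 miR-294-transfected and 40 of 45 let-7-transfected cells. The Trp53inp1 medians were 72.5, 41.5, 67.4 and 77.9, and its highest values were 1637, 704, 1142 and 988. Its means were 194 ± 313, 157 ± 226, 125 ± 176 and 182 ± 229, with 0 as the lowest value in every group. The log2 ratio was -0.64 after miR-294, where Trp53inp1, like Cdkn1a, is on the list of miR-294 targets by which the authors judged and removed cells, so that its direction in these cells is not independent of that choice. As a difference of mean log2(normalised count + 1) it was 0.09. It was -0.10 after let-7 and 0.31 for Dgcr8-/- against WT. Among cells with 1 run both of these Trp53inp1 directions turned (0.37 and -0.31), and the latter also turned when centred on the median gene (-0.06).

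Zmat3 (chr3:32334792-32366014, minus strand), an RNA-binding zinc finger protein and p53 target, was counted in 49 of 60 Dgcr8-/-, 12 of 16 WT, 52 of 57 miR-294-transfected and 36 of 45 let-7-transfected cells. The Zmat3 medians were 31.4, 2.07, 37 and 22.1, and its highest values 311, 265, 672 and 828. Its means were 58 ± 80.7, 52.2 ± 88.7, 76.9 ± 110 and 66.9 ± 137, and the lowest value was 0 in every group. The log2 ratios were 0.41 after miR-294, 0.20 after let-7 and 0.15 for Dgcr8-/- against WT. The let-7 direction turned without let-7-transfected cell 21 (-0.23), and it also turned with CPM or TMM scaling. The Zmat3 ratio of Dgcr8-/- to WT turned when centred on the median gene (-0.21) or with pooled CPM (-0.34), but was past 2-fold with medians over cells plus 1 (3.40) and as a difference of mean log2(normalised count + 1) (1.03). No direction of Zmat3 against WT can be read from these cells.

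Bbc3 (chr7:16308393-16318205, plus strand), which encodes the pro-apoptotic BH3 protein Puma, was barely counted. It held a sum of 48 counts in 9 of 60 Dgcr8-/- cells, 14 counts in 10 of 57 miR-294-transfected cells and 6 counts in 3 of 45 let-7-transfected cells. In WT it was counted in 0 of 16 cells, which allows a share of up to 18.8% by the limit of 3 counts, or 20.6% as the exact upper bound. Dgcr8-/- cell 40, with a normalised count of 31.5, held 72.4% of the level of its condition, and no other cell in any condition exceeded 3.58. A difference in Bbc3 between the conditions was not detectable at this depth.

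Beside the seed matches, Sesn2 (-0.68) and Trp53inp1 (-0.64), each with 1 match, were among the members lowest after miR-294. Zmat3, also with 1 match, stood at 0.41. Relative to the median gene, Sesn2, Trp53inp1 and Zmat3 stood at -0.41, -0.36 and 0.68, and Perp, without a match, at -0.325. Trp53inp1 and Cdkn1a are on the target list by which the authors removed cells, so that their directions are not independent of that choice. Among the members without a match Perp was lowest (-0.60), and the ratios of Trp53, Mdm2, Mdm4 and Phlda3 ran from -0.41 (Mdm4) to 0.53 (Phlda3). Cdkn1a, with 2 matches, was 5.31-fold lower after miR-294 (log2 -2.41), from 314 ± 333 in Dgcr8-/- to 59.02 ± 69.4 normalised counts, with 2 of 57 cells above the Dgcr8-/- median. AC167363.2, on the opposite strand, overlaps Cdkn1a, and reads of the 2 cannot be told apart without strand. The WT mean of Cdkn1a was 66.4 ± 60.5 and its let-7 mean 410 ± 446. None of the members followed Cdkn1a past 2-fold in the miR-294 comparison. Whether the matches were bound was not measured.

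**Figure D4:**
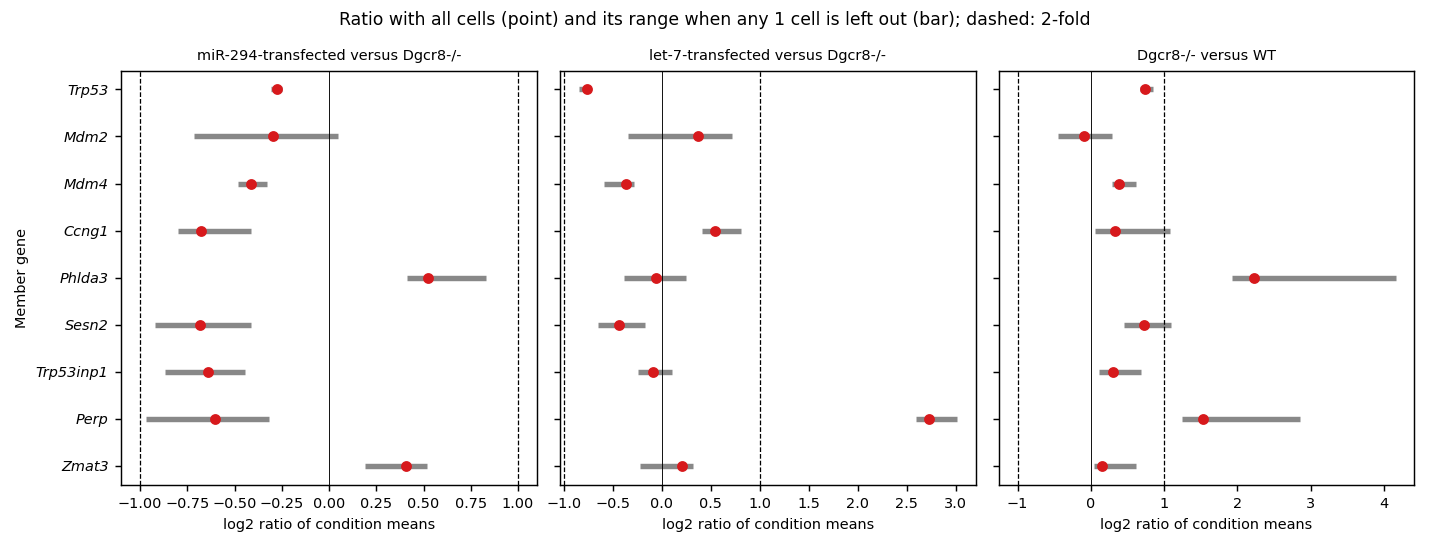
Log2 ratio of condition means for the 9 compared members with all cells (red point) and the range of that ratio when any 1 cell of either condition is left out (grey bar), with dashed lines at 2-fold and a solid line at 0. Bars are short for Trp53 and for Perp after let-7, cross 0 for Mdm2 in each comparison, and are long for Phlda3 (1.93 to 4.16) and Perp (1.25 to 2.85) in Dgcr8-/- against WT.

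The members were then compared with one another over the cells of each condition, as Spearman correlations of normalised counts, given as a description. The points share a circuit and a size factor, and low counts weaken every value. Over the 36 pairs of the 9 members, the median correlation was 0.098 in Dgcr8-/- (60 cells), 0.253 in WT (16 cells), 0.157 in miR-294-transfected (57 cells) and 0.207 in let-7-transfected cells (45 cells). Pairs above 0.3 numbered 6, 12, 8 and 10 of 36, and the share over all gene pairs was not computed. Correlations over 16 cells scatter more than those over 60, so that the WT median and count cannot be set against the others. The highest value was 0.467 in Dgcr8-/- (Ccng1 with Trp53inp1), 0.557 in WT (Ccng1 with Perp), 0.421 after miR-294 (Mdm2 with Mdm4) and 0.450 after let-7 (Phlda3 with Sesn2). Mdm2 with Zmat3 stood at 0.226, 0.486, 0.415 and 0.383 in Dgcr8-/-, WT, miR-294- and let-7-transfected cells. Trp53 mRNA reached at most 0.25 with any of the other 8 members in any condition. With Cdkn1a, not a member, Trp53 stood at 0.208 in Dgcr8-/-, 0.4 in WT, -0.144 in miR-294-transfected and -0.092 in let-7-transfected cells.

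**Figure D5:**
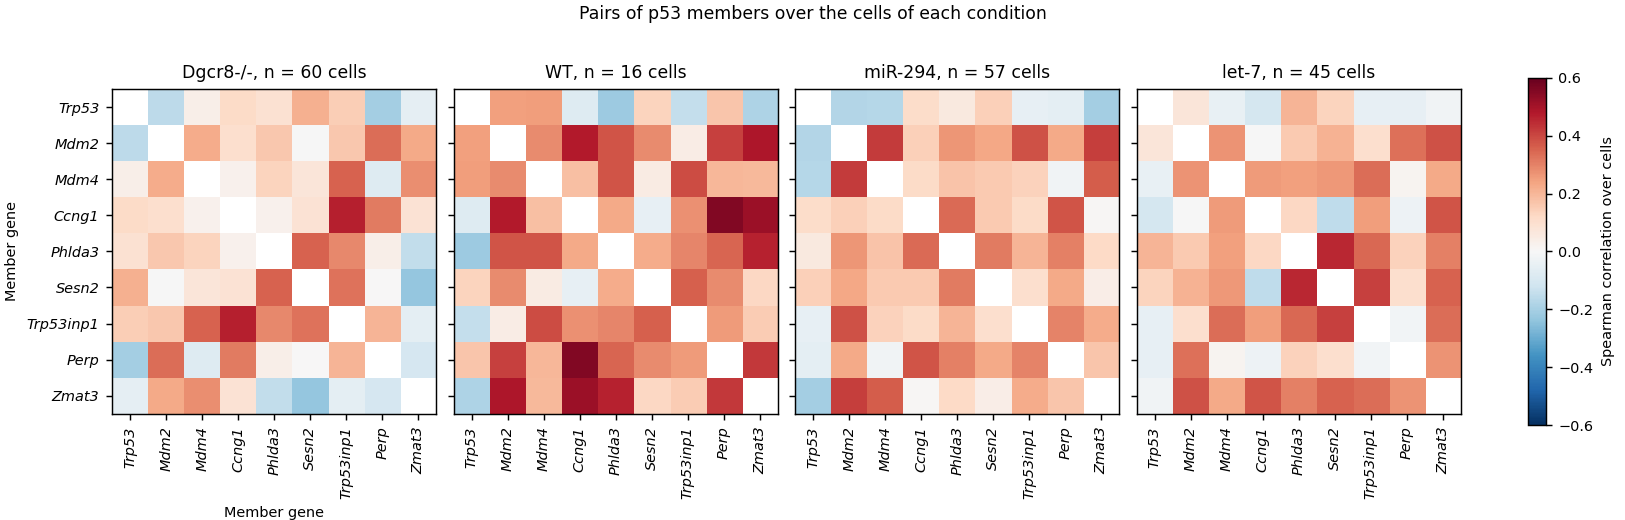
Spearman correlations over cells for each pair of the 9 compared members in the 4 conditions, from blue (negative) to red (positive), with the number of cells above each panel. The Trp53 row stays pale everywhere (-0.218 to 0.25), while pairs among the targets are mostly positive, at most 0.557.

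Among 6430 other genes counted in at least 50% of the cells of the 3 Dgcr8-/- groups, those most like a member were found by the mean of the 3 within-condition correlations. For Trp53 they were Pkm (0.453), a glycolytic enzyme, Gm13456 (0.429) and Slc25a5 (0.415), a mitochondrial ADP and ATP carrier. For Mdm2 they were Gm14735 (0.366), Csnk1g1 (0.360) and Zmat3 (0.342), the last a member. Those for Ccng1 were Sppl2a (0.315), Psap (0.313) and Saraf (0.299). All are weak to moderate, over cells that share circuits and depth.

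The wider pathway was read from a list of 34 other p53 targets, 29 of which were compared. After miR-294, 2 were past 2-fold higher and 7 lower, with a list median of -0.23 beside -0.28 for all genes, of which 5.74% were higher and 20.6% lower. The largest ratios were those of the kinase Plk3 (-2.76), Cdkn1a (-2.41), Ei24 (-1.88) and Sfn, the 14-3-3 protein sigma (-1.33). After let-7, 3 were higher and 3 lower (list median 0.24, all genes 0.18), against 18.5% and 9.19% of all genes, led by the DNA damage sensor Ddb2 (-4.24), the stress gene Gadd45a (3.43), Pidd1 (-2.09) and Sfn (1.58). Gadd45a went from 5.14 ± 15.6 to 55.4 ± 101 normalised counts and was counted in 31 of 60 Dgcr8-/- and 39 of 45 let-7-transfected cells. Ddb2 was counted in 24 of 60 and 9 of 45 of these cells, and Pidd1 in 25 of 60 and 5 of 45. In Dgcr8-/- against WT, 11 were higher and 3 lower (list median 0.67, all genes 0.37), against 31.8% and 9.69% of all genes, led by Sfn (5.66), the kinase Plk2 (3.76), the antiproliferative gene Btg2 (3.21) and the receptor Eda2r (2.74). Sfn was counted in 4 of 16 WT cells, Plk2 in 2, Btg2 in 3 and Eda2r in 1. In Dgcr8-/- they were counted in 49, 46, 49 and 26 of 60 cells, so that these ratios rest on few WT cells. The list thus split in both directions in each comparison, as all genes did.

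Of 29 regulators of p53, 23 were compared. After miR-294, 2 were past 2-fold higher and 4 lower, with the largest ratios for Ppp1r13l (-1.33), which encodes an inhibitor of p53 and was counted in 5 of 60 Dgcr8-/- and 7 of 57 miR-294-transfected cells, the acetyltransferase Kat5 (1.22), the damage kinase Atm (-1.2) and Ppp1r13b (1.197). After let-7, 3 were higher and 1 lower, namely Trp53bp2 (2.03), Kat5 (2.01), Ppp1r13b (1.43) and the checkpoint kinase Chek2 (-1.25). In Dgcr8-/- against WT, 3 were higher and 2 lower, led by Ppp1r13b (5.08), Trp53bp2 (-1.30), Kat5 (-1.29) and the ubiquitin ligase Herc2 (1.05). Ppp1r13b was counted in 1 of 16 WT and 12 of 60 Dgcr8-/- cells, so that its ratio rests on few cells. The medians of this list were -0.26, 0.09 and 0.07, beside -0.28, 0.18 and 0.37 for all genes, and the shares of all genes past 2-fold are those given for the targets.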

How the data were processed

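The authors prepared cDNA of single cells on the Fluidigm C1, made Nextera XT libraries (no strand, no molecular identifiers) and assigned reads to Gencode M4 transcripts (GRCm38) with RSEM 1.2.19. The deposited files give RSEM expected counts and FPKM per gene and run. Gene IDs were matched to symbols by a Gencode M21 table (41674 of 42493).

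For each cell the expected counts were added over its runs and rounded to whole numbers, and cells were grouped by their labels. Counts were divided by DESeq-type size factors (median of ratios over the 863 genes counted in every cell), as in the study's methods. FPKM of the runs were averaged with their totals as weights. Ratios of condition means used a floor of 3 counts per condition. Genes averaging under 5 counts were left out. The study tested cells as replicates; here a condition is 1 sample, so that no test was run and the number of cells measures spread between cells only. Depth was 513521 to 3979274 counts per cell, with 95% exact binomial intervals on shares of cells.

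All 10 members and Cdkn1a were named; of other lists, at most 4 genes per comparison, those with the largest ratio past 2-fold; and the 3 genes most like Trp53, Mdm2 and Ccng1. The members, lists and marker genes were chosen with earlier results of these data known. Names singled out for single cells were chosen after their values were seen. Calculations used Python 3.11.15, numpy 2.4.6, scipy 1.17.1, pandas 2.3.3 and edgeR 4.0.16 (TMM factors only). The ratio step was tested on counts simulated for the miR-294 comparison only. Their spread between cells was set below that of all compared members but Trp53, so that the test does not cover so wide a spread. Alternatives covered scaling, summary over cells, runs, depth, filters, fold limit and single cells left out. Leaving out cells with unmatched runs, and cells that share counts, was added after seeing the data. Sites were read from Gencode M21 transcripts (GRCm38) and RefSeq tables (GRCm38.p6). The seed match of 1 member is not reported here.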

Additional observations from a re-analysis of the deposited data

How the results depend on the processing

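The counts of members past 2-fold were recomputed under each alternative. After miR-294 the count higher went from 0 to 1 with differences of mean log2 values (6.4% of all genes) and with medians (11.3%). The count lower went from 0 to 3 among cells sequenced in 2 runs (Ccng1 -1.23, Trp53inp1 -1.19 and Sesn2 -1.06). In those cells 27.9% of all genes were lower. It went to 1 when genes with at least 1 count in at least 1 cell were kept (Bbc3, 21.6% of all genes). With a limit of 1.5-fold it went to 4, and 35% of all genes passed that limit lower. After let-7 the count higher was 1 under every alternative. The count lower went from 0 to 1 with mean log2 values (Mdm4, 9.57% of all genes) and with medians (Sesn2, 13.5%). It also went to 1 with the wider gene filter (12.4%) and with the 1.5-fold limit (17.1%). Among cells with 2 runs it went to 2 (Phlda3 -4.88 and Sesn2 -1.35), where 24.7% of all genes were lower. For Dgcr8-/- against WT the count higher went from 2 to 1 with thinned cells (26.6% of all genes), where Phlda3 fell below the filter. It went to 3 with the wider gene filter (Bbc3, 25.4%) and to 4 with the 1.5-fold limit, which 42.6% of all genes passed higher. With medians it was still 2 (20% of all genes), but these were Zmat3 and Mdm4 in place of Phlda3 (0) and Perp (0.87). With mean log2 values it was 2 (19.1%), namely Perp and Zmat3 (1.03) in place of Phlda3 (0.80). The count lower went from 0 to 1 with medians (Mdm2 -1.15), where 12.1% of all genes were lower. Leaving out 1 cell at a time gave 2 to 3 higher in that comparison, the third being Ccng1 or Sesn2. WT has 2 cells with 2 runs, too few for that alternative. Unless named here the cause was not tested. No called ratio took the other sign under any alternative, including those without the 2 cells with unmatched runs and without the cells that share counts. The low counts of Bbc3, Phlda3 and Perp in 16 WT cells limit what can be seen. No paired analysis was possible because the replicate numbers in the labels mark sequencing runs or cells of 1 condition, and no test was run.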
